A study of Tupaia belangeri with 15 samples.

Results

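Rods are the photoreceptors that serve vision in dim light, and the diurnal tree shrew (TS, Tupaia belangeri) has few of them beside its many cones. In single-nucleus RNA sequencing (snRNA-seq) of 15 TS retinas, rods were taken as nuclei with 201 to 5999 detected genes and under 5% mitochondrial counts that held at least 3 UMIs (unique molecular identifiers, each a counted RNA molecule) of CLUL1, at least 1 UMI of CNGA1, PDE6A, PDE6B or NR2E3, and 0 UMI of ARR3, GAD1 and GAD2. The rule found 790 rods among 119765 nuclei that passed the filters on genes and mitochondrial counts. The retinas were labelled by developmental stage only, with 5 from Infancy, 5 Mature and 5 Senile, and their labels gave no strain, genotype, treatment or sex. According to the methods of the study the senile TSs came from another provider than the infant and mature ones, so that age and provider cannot be told apart in any comparison with senile retinas. Each label named 1 retina sample of a stage, and the p-values below measure the spread between these retinas.

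A rod catches photons with a visual pigment in its outer segment, and the activated pigment acts through the G protein transducin (GNAT1, GNB1, GNGT1) on a phosphodiesterase (PDE6A, PDE6B), which lowers cGMP and closes the cyclic nucleotide-gated channel (CNGA1, CNGB1). Arrestin (SAG) helps to end the response, and the transcription factors NRL and NR2E3 set the rod fate and hold cone genes off. CLUL1, a relative of clusterin, is a photoreceptor gene of little known function and was the main gene of the rule. ARR3 is cone arrestin, and GAD1 and GAD2 make the transmitter of inhibitory neurons.

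The libraries held 13429873 to 58734300 UMIs per retina. The summed rod counts, on which the gene tests rested, ran from 49384 UMIs in Senile 3 to 416262 in Infancy 5, with a median of 2176 UMIs per rod. Libraries 1 to 3 of Infancy and the libraries 1 and 2 of both Mature and Senile carried Cell Ranger 6.1.2 in their file headers, and all others version 7.0.1. No cell barcode of a rod occurred in the rods of another retina. A doublet score marked 27 of the 790 rods (3.42%), against 6.63% of all nuclei. Senile 1 held 0 rods and stood apart from the other retinas, and the gene tests used the 14 retinas with at least 10 rods.

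The number of rods was 97, 63, 65, 44 and 96 in Infancy 1 to 5, 69, 68, 65, 59 and 27 in Mature 1 to 5, and 0, 60, 22, 31 and 24 in Senile 1 to 5. In a rod, CLUL1 gave a median of 20 and at most 103 UMIs. PDE6A, the alpha subunit of the rod phosphodiesterase, had a UMI in 92.8% of rods, its beta subunit PDE6B in 81.4% and the nuclear receptor NR2E3 in 65.2%. All 3 of these genes were found together in 430 rods, 2 of them in 241 and 1 in 119. CNGA1, the fourth gene of the rule, had 0 UMIs in every library and chose no nucleus. Of the genes that had to be absent, GAD2 had 0 UMIs in rods, cones and other nuclei, and GAD1 only 1.78 CPM (counts per 1000000 UMIs of the summed nuclei) in other nuclei, so that these limits left out few nuclei.

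The edges of the rule were as follows, given as a description since the rule set them. The summed level of the rod markers that the rule did not use (SAG, NRL, GNAT1, ROM1, GNGT1, ESRRB, CADM1, CNGB1li1 and others) was 7886 CPM over the members. It was 3009 CPM in the 18 nuclei that failed only with 2 UMIs of CLUL1, 2458 CPM in the 7 members with 3 UMIs and 6837 CPM in the 10 members with 4. Over all retinas few nuclei therefore lay at the CLUL1 limit. It weighed more in Senile 3 and 4, where a limit of 5 UMIs left 18 of 22 and 25 of 31 rods. Senile 2 kept 58 of 60, Senile 5 23 of 24 and Infancy 1 95 of 97. The median CLUL1 count per rod was 8 UMIs in Senile 4 and 12.5 to 16.5 in Senile 2, 3 and 5. In infant and mature retinas this median was 15 to 34 UMIs. More nuclei lay at the limit of 0 UMI for cone arrestin: 195 nuclei failed only by 1 UMI of ARR3, with 8116 CPM of the rod markers, and 130 failed only by 2 or more, with 3676 CPM. A further 67 nuclei failed only for want of PDE6A, PDE6B and NR2E3, with 1566 CPM, and 3 only by GAD1 or GAD2.

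Markers that the rule did not use were high in these nuclei, but some defining genes of rods were at 0. To compare nuclei at equal depth, nuclei with under 1000 UMIs were dropped and the others thinned to 1000 UMIs. This left 731 rods, 17898 cones and 93231 other nuclei. Cones here were nuclei with at least 3 UMIs of ARR3, at least 1 UMI of PDE6C, GNAT2, PDE6H or GRK7, and 0 UMI of CLUL1, GAD1 and GAD2. Rod arrestin SAG then had a UMI in 93.4% of rods, 9.77% of cones and 1.95% of other nuclei. The share for NRL, the leucine zipper factor of rod fate, was 29.4% in rods, 0.0894% in cones and 0.224% in other nuclei. Both genes thus marked the rods far above the other classes. ESRRB, an estrogen-related receptor of rods, had a UMI in 55.7% of rods against 0.173% of cones, and the rod transducin GNAT1 in 20.2% against 0.425%. In the other direction, cone transducin GNAT2 was found in 1.92% of rods and 54.9% of cones, and the red-sensitive opsin OPN1LW in 1.09% and 39.1%. The bipolar cell (BC) marker TRPM1 was found in 4.24% of rods and 10.3% of other nuclei, and PAX6 of amacrine cells in 6.02% and 28.4%. PDE6G, a defining gene of rods, and RP1, another marker listed outside the rule, had 0 UMIs in rods. So had the calcium sensors GUCA1A and GUCA1B, the guanylate cyclase GUCY2F and AIPL1. PDE6G was at 0 CPM in cones and other nuclei too, and RP1 at 0.0113 and 0.0451 CPM there. The cone markers CNGA3, CNGB3 and GNGT2 were at 0 CPM in rods, cones and other nuclei. CNGB1, the beta subunit of the rod channel, had 9 UMIs in rods under its own symbol and 1045 under the numbered copy CNGB1li1, and it is not known how the counting divided reads between the copies. Whether the transcripts of the genes at 0 were missing from the nuclei or were not counted cannot be told apart in these files.

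Levels in rods and in cones of the same retina were set side by side as a description, with no test, because the rule had chosen both by genes of these types. Each value was the median, over 14 retinas, of the difference in log2(CPM + 1). Among rod genes that the rule did not use, ESRRB was 8.05 and NRL 7.35 higher in rods. GNGT1, the gamma subunit of rod transducin, averaged 102 CPM in rods and 0.494 in cones. GNAT1 was 5.14 higher, SAG 4.23, and the common beta subunit GNB1 3.73. SLC24A1, the sodium, calcium and potassium exchanger of rods, was 6.11 higher, and its cone relative SLC24A2 had a difference of -3.99. Apart from SLC24A2, each of these genes was higher in rods in 14 of 14 retinas. ROM1, a tetraspanin of the disc rim, was 2.13 higher and its partner PRPH2 1.54 higher, while CRX, the homeobox factor of both photoreceptor types, differed by 0.48 and was higher in rods in 10 of 14 retinas.

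Several genes outside the phototransduction list stood near the top of this order. PON1, an enzyme best known from serum lipoproteins, averaged 285 CPM in rods and 0.252 in cones (median log2 difference 7.68). RPE65, the retinoid isomerase of the pigment epithelium, averaged 294 CPM in rods and 1.33 in cones (7.45). The other markers of pigment epithelium were low in rods, with LRAT and BEST1 at 0, TTR at 6.57 and TYRP1 at 2.19 CPM in the pooled counts. LYPD6, a small modulator of Wnt and nicotinic signalling, averaged 1130 against 8.24 CPM (7.01), and LAMA2, a laminin chain of basement membranes, 376 against 3.80 (6.87). These genes were higher in rods in 14 of 14 retinas. The list of genes lower in rods held EYS, a protein of the photoreceptor cilium whose loss causes retinitis pigmentosa in people, at 3.98 CPM in rods and 2038 in cones (log2 difference -10.41). MORC1 had 13.7 CPM in rods and 1151 in cones (-6.47), and the photoreceptor factors RAX and PRDM1 were at -5.93 and -5.97. SAMD7 and SAMD11, Polycomb-associated proteins of photoreceptors, went opposite ways, SAMD7 at 8.05 CPM in rods against 410 in cones (-5.67) and SAMD11 at 47.0 against 2.10 (4.15). PRKCA, a usual marker of rod BCs, averaged 418 CPM in rods and 38.2 in cones.

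**Figure D1:**
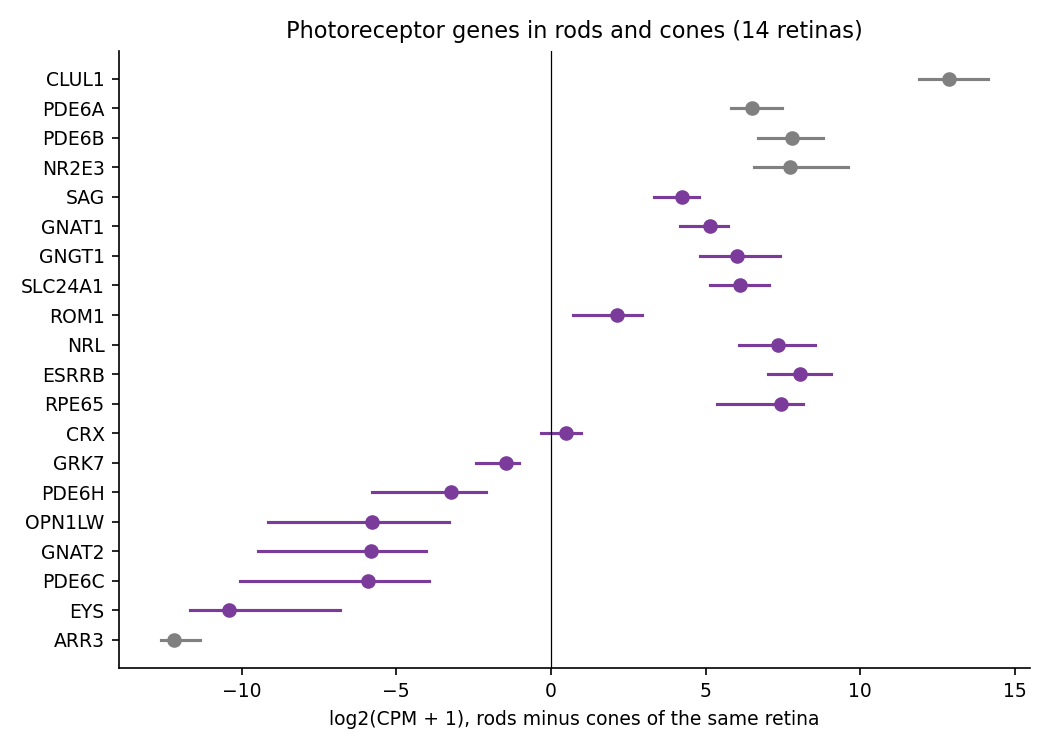
Difference between rods and cones in log2(CPM + 1) for 20 genes, with points at the median and bars over the range of 14 retinas; genes of the rule are grey. ESRRB (8.05) and NRL (7.35) lie far above 0, CRX (0.48) close to it, and EYS (-10.41) far below.

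The first question was whether the rod share changed with age. Rods made up 1.26, 0.706, 0.660, 0.501 and 1.36% of nuclei in Infancy 1 to 5. The shares were 0.839, 0.718, 0.721, 0.622 and 0.638% in Mature 1 to 5, and 0, 0.805, 0.415, 0.432 and 0.251% in Senile 1 to 5. Infant and mature retinas overlapped widely, and of the senile retinas only Senile 2 lay within the range of the others. The means were 0.899% ± 0.388, 0.707% ± 0.0860 and 0.381% ± 0.294 (SD, n = 5 each). The difference of the means was -0.518 points for senile minus infant retinas (2-sided exact permutation test, p = 0.0635, adjusted p = 0.0952 over 3 contrasts), and -0.327 points for senile minus mature ones (exact permutation p = 0.0397, adjusted p = 0.0952). Mature and infant retinas differed by -0.192 points (exact permutation p = 0.373). None of the 3 contrasts passed the threshold of 0.05 after adjustment, and the smallest p this design allows is 0.00794. Within Cell Ranger 6.1.2 the means were 0.877, 0.778 and 0.403%, and within version 7.0.1 they were 0.933, 0.660 and 0.366%. The senile mean of version 6.1.2 rested on Senile 1 at 0 and Senile 2 at 0.805%, and without Senile 1 it lay above the mature mean of that version.

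**Figure D2:**
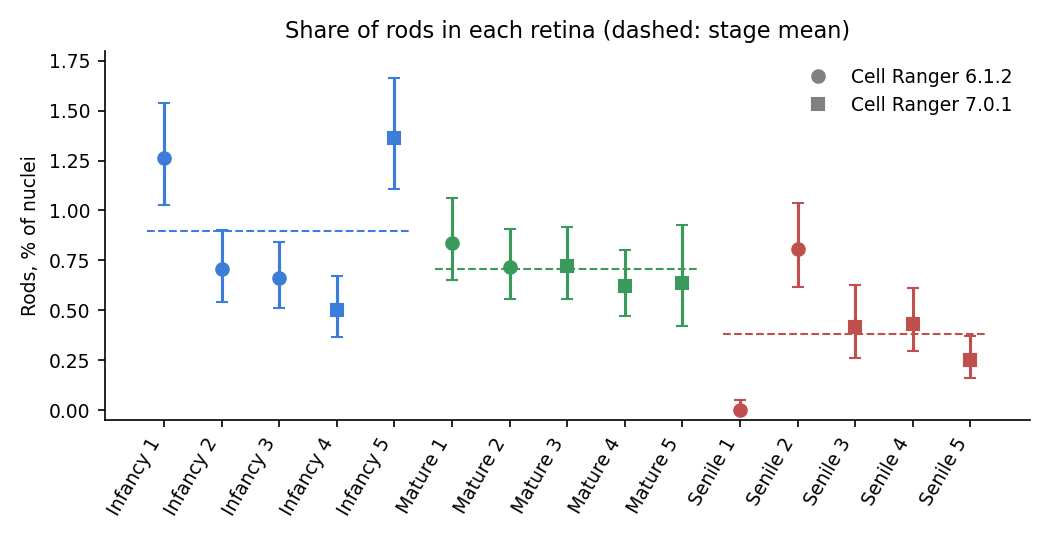
Share of rods among all nuclei (%) in each retina by stage, with 95% exact binomial intervals that cover counting error only; circles are libraries of Cell Ranger 6.1.2, squares of 7.0.1, and dashed lines are stage means. Senile 1 sits at 0 and Senile 2, at 0.805%, lies within the range of the younger retinas.

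The senile difference depended on how rods were counted. Among rods plus cones, rods took 8.35% ± 5.18 in infant, 7.68% ± 6.18 in mature and 1.86% ± 1.19 in senile retinas (SD, n = 5 each), and both senile contrasts then passed (differences -6.49 and -5.82 points, exact permutation adjusted p = 0.0238 and 0.0357). The number of cones in this ratio ran from 475 to 1146 in infant, 124 to 2516 in mature and 987 to 2175 in senile retinas, and Mature 5, with 27 rods and 124 cones, had the highest value of 17.9%. With nuclei under 1000 UMIs dropped and the rest thinned to 1000 UMIs, they were -0.670 and -0.548 points (exact permutation adjusted p = 0.0119 for both). For rods chosen without CLUL1 they were -0.507 and -0.393 points (exact permutation adjusted p = 0.0119 for both). In both of these counts Senile 2, the senile retina within the range of the others, had far fewer rods. It had a median of 890 UMIs per rod, the lowest of all retinas, so that many of its rods were under 1000 UMIs and were dropped. Thinning kept 5687 of its 7451 nuclei. The rule applied to these found 15 rods, a share of 0.264%, where it had found 60 before. Thinning raised the number of rods in Infancy 4 (44 to 55), Mature 3 (65 to 81) and Mature 5 (27 to 35). It also rose in Infancy 5 (96 to 97), Mature 1 (69 to 71) and Senile 5 (24 to 26). The number fell in Infancy 1 (97 to 88), Infancy 2 (63 to 54) and Infancy 3 (65 to 62). It also fell in Mature 2 (68 to 60), Mature 4 (59 to 58), Senile 3 (22 to 17) and Senile 4 (31 to 23). The mean share rose from 0.899 to 0.921% in infant and from 0.707 to 0.799% in mature retinas. The senile mean fell from 0.381 to 0.251%. The choice without CLUL1 found 26 rods in Senile 2, a share of 0.349%. The other counts of rods passed in neither senile contrast. With called doublets removed the differences were -0.535 and -0.328 points (exact permutation adjusted p = 0.0952 for both), and with CLUL1 at 2 or more UMIs -0.494 and -0.304 (exact permutation adjusted p = 0.0952 for both). With CLUL1 at 5 or more UMIs they were -0.550 and -0.364 points (exact permutation adjusted p = 0.0595 for both). Nuclei with 1 UMI of ARR3, whose level of the rod markers is given above, raised the share of Mature 3 from 0.721 to 1.29% and that of Senile 4 from 0.432 to 0.670% when counted. The differences then were -0.581 and -0.502 points (exact permutation adjusted p = 0.0833 and 0.0714). With retinas permuted within Cell Ranger version they were -0.520 and -0.327 points (exact permutation adjusted p = 0.105 and 0.1). A share says nothing of the number of rods in the retina, since it also falls when other nuclei are recovered in greater number.

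No rod was found among the 7575 nuclei of Senile 1, which allows a share of up to 0.0396% (3 counts of the total, counting error alone), or 0.0487% as the upper end of the 95% exact binomial interval. When rods were chosen without CLUL1, 2 were found in Senile 1, a share of 0.0264%. The whole library, with all its nuclei, had a CLUL1 level of 0.321 CPM (7 UMIs in all), where the other 14 libraries had 18.9 to 187. The nuclear receptor NR2E3 was at 0.321 CPM against 1.68 to 22.5 elsewhere, and NRL at 0.825 against 1.60 to 8.06. ESRRB at 2.38 against 5.28 to 19.5 CPM, PDE6B at 3.80 against 6.25 to 20.1 and PDE6A at 11.1, where the highest library had 41.2, were also below every other library. SAG at 55.8 CPM against 44.0 to 141 and GNAT1 at 4.17 against 3.25 to 7.54 lay within the range of the others. Without Senile 1 the senile shares ran from 0.251 to 0.805%, and the differences from infant and mature retinas were -0.423 and -0.232 points (exact permutation adjusted p = 0.190 for both). Without Senile 2 they were -0.624 and -0.433 points (exact permutation adjusted p = 0.0238 for both), the only retina whose removal let them pass.

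CLUL1 was next measured in rods that it had not chosen. These were 704 nuclei with at least 3 UMIs summed over PDE6A, PDE6B and NR2E3 and 0 UMI of ARR3, GAD1 and GAD2, of which 665 were also rods by the rule (94.5% of them, and 84.2% of the rods). Their CLUL1 level in log2(CPM + 1) was 13.99, 13.67, 14.14, 12.25 and 12.30 in Infancy 1 to 5, and 13.63, 13.23, 11.63, 12.36 and 12.28 in Mature 1 to 5. It was 13.39, 13.28, 11.63 and 11.63 in Senile 2 to 5. The stages overlapped, and within every stage each Cell Ranger 6.1.2 library lay above each 7.0.1 library. Within version 6.1.2 Infancy 1 to 3 lay above Mature 1, Mature 2 and Senile 2, and within 7.0.1 the stages overlapped. Mature rods differed from infant rods by -0.65 (2-sided exact permutation p = 0.254), senile from infant by -0.79 (exact permutation p = 0.254) and senile from mature by -0.14 (exact permutation p = 0.857), with adjusted values of 0.381, 0.381 and 0.857. With retinas permuted within Cell Ranger version the differences were -0.35, -0.27 and 0.052 (exact permutation adjusted p = 0.36, 0.867 and 0.867). With TMM-scaled CPM they were -0.64, -1.12 and -0.47 (exact permutation adjusted p = 0.298, 0.238 and 0.357), and with at least 20 such rods per retina the senile ones were -1.06 and -0.41 (exact permutation adjusted p = 0.381 and 0.589). No change of CLUL1 with stage was thus detectable at this spread.

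**Figure D3:**
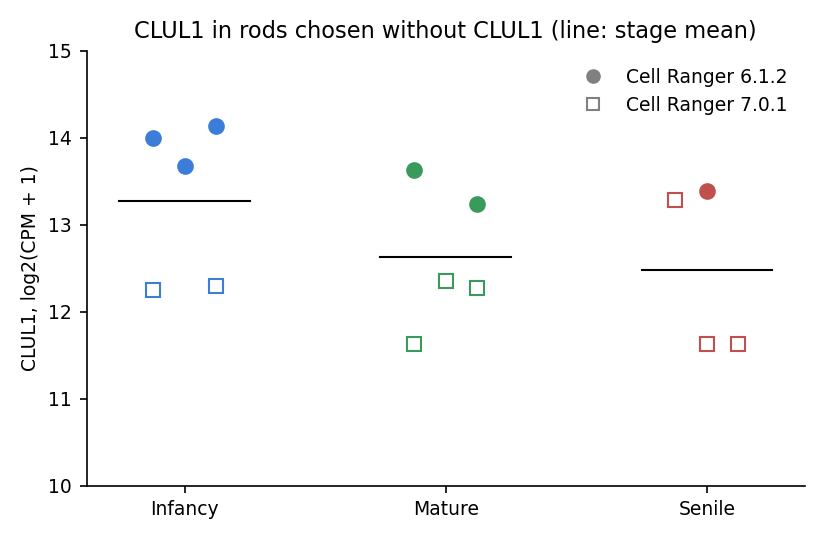
CLUL1 level in log2(CPM + 1) in rods chosen without CLUL1, 1 point per retina by stage; filled points are Cell Ranger 6.1.2 and open points 7.0.1, and the axis does not start at 0. The stages overlap, and within a stage the filled points lie above the open ones.

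The second question was which genes changed with stage within rods. Counts were summed over the rods of each retina and fitted with edgeR for 14 retinas, with the Cell Ranger version in the model. Of 4041 genes tested, 6 rose and 4 fell from infant to mature rods, 0.247% of the genes tested, and 7 rose and 3 fell from infant to senile rods, also 0.247%. Between mature and senile rods 1 gene rose, or 0.0247%. These comparisons share their infant or mature retinas. DESeq2 called 19, 31 and 1 genes. The same model in cones, which had far more nuclei and 17877 genes tested, gave 153 genes up and 34 down from infancy to maturity, 199 and 42 from infancy to senility, and 0 between mature and senile cones, where 1880 genes had an unadjusted p under 0.05.

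DLGAP2 (TSDBGID.14693), a scaffold protein of the postsynaptic density, was called in both comparisons with infancy. It had 245, 283, 300, 79.4 and 137 CPM in rods of Infancy 1 to 5, and 1887, 2057, 2726, 1126 and 2294 CPM in rods of Mature 1 to 5. Rods of Senile 2 to 5 had 2072, 2268, 1940 and 2091 CPM. Every mature and senile retina lay far above every infant one, and mature and senile rods overlapped. The means were 209 ± 96.1, 2018 ± 590 and 2093 ± 135 CPM (SD, n = 5, 5 and 4). DLGAP2 rose by 3.41 ± 0.29 (log2 fold change ± SE, edgeR adjusted p = 3.27e-06) from infant to mature rods and by 3.47 ± 0.31 (edgeR adjusted p = 5.12e-06) from infant to senile rods, and differed by 0.063 between mature and senile rods. Both rises passed in all 24 alternative fits of each comparison, among them a gate that also asked for 0 UMI of PDE6C, GNAT2, TRPM1, RLBP1, PAX6 and RBPMS. Within Cell Ranger 6.1.2 libraries the log2 differences of mean levels were 2.84 and 2.91, and within 7.0.1 libraries 4.19 and 4.32.

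Cones of the same retinas had mean DLGAP2 levels of 87.2 ± 13.8, 87.4 ± 53.6 and 124 ± 37.9 CPM, and edgeR gave log2 changes of -0.17 (adjusted p = 0.920) and 0.19 (adjusted p = 0.835). The test of rod change minus cone change, with each retina as a block, gave 3.49 ± 0.30 for mature against infant (edgeR adjusted p = 2.60e-10) and 2.78 ± 0.32 for senile against infant (edgeR adjusted p = 1.10e-06). With called doublets removed these differences were 3.03 and 1.92 and did not pass (edgeR adjusted p = 0.281 and 0.669). The removal lowered the median cone level from 71.9 to 14.7 CPM in the 6.1.2 libraries and from 112 to 81.7 in the 7.0.1 libraries, whereas the rise in rods passed there too. Of the 12 DLGAP, SHANK and DLG scaffold genes listed, 7 were tested and DLGAP2 alone was called, in both comparisons with infancy, where 0.247% of all genes were called. DLGAP2 was known from an earlier analysis of these data, so that its calls say nothing of the list. The others had small differences: DLG2 averaged 5246 CPM in infant, 5415 in mature and 6192 in senile rods, SHANK3 273, 319 and 236 CPM, and DLGAP4 267, 307 and 357 CPM.

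NEBL (TSDBGID.12728), which encodes the actin-binding protein nebulette and its shorter relative LASP2, followed a like course. Rods of Infancy 1 to 5 had 50.1, 44.0, 106, 68.8 and 55.3 CPM, rods of Mature 1 to 5 had 400, 357, 444, 467 and 203 CPM, and rods of Senile 2 to 5 had 249, 486, 451 and 232 CPM. The infant retinas lay below all others. NEBL rose by 2.54 ± 0.30 to mature rods (edgeR adjusted p = 0.000196) and by 2.36 ± 0.34 to senile rods (edgeR adjusted p = 0.00201). Cones had 17.5, 26.9 and 33.7 CPM on average. The rod change exceeded the cone change by 2.06 ± 0.32 for mature against infant (edgeR adjusted p = 0.000911; 1.69 and adjusted p = 1 with doublets removed) and by 1.32 ± 0.36 for senile against infant (edgeR adjusted p = 0.332).

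EDA, the ligand ectodysplasin, had 50.1, 44.0, 44.1, 58.2 and 64.9 CPM in infant rods and 149, 123, 136, 161 and 155 CPM in mature rods. Senile rods had 193, 142, 109 and 105 CPM. The infant retinas again lay below all others. EDA rose by 1.37 ± 0.22 to mature rods (edgeR adjusted p = 0.00712), and the senile difference from infancy was 1.24 ± 0.27 (edgeR adjusted p = 0.0646). RPE, an epimerase of the pentose phosphate pathway, ran from 72.4 to 148 CPM in infant, 29.9 to 70.4 in mature and 13.8 to 101 in senile rods. It fell by 1.38 on the log2 scale to mature rods (edgeR adjusted p = 0.0404), a call that passed in 9 of 23 alternatives.

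RPGRIP1 (TSDBGID.21826), which anchors the retinitis pigmentosa protein RPGR in the connecting cilium, fell in senile rods. Its levels were 317, 276, 450, 397 and 416 CPM in rods of Infancy 1 to 5 and 209, 240, 335, 261 and 316 CPM in rods of Mature 1 to 5. In rods of Senile 2 to 5 they were 124, 162, 82.0 and 105 CPM. These senile levels rest on few UMIs per retina, in summed rod counts of 49384 to 86090 UMIs. Every infant and mature sum was larger, at 113367 to 416262 UMIs. The senile retinas lay below all infant and mature ones, and infant and mature retinas overlapped. The log2 fold change was -1.84 ± 0.25 for senile against infant (edgeR adjusted p = 0.000973, passed in 23 of 24 alternatives), -1.31 ± 0.25 for senile against mature (edgeR adjusted p = 0.0991) and -0.53 ± 0.18 for mature against infant (edgeR adjusted p = 0.404). Cones averaged 357, 387 and 283 CPM, and the senile change in rods minus that in cones was -1.53 ± 0.34 (edgeR adjusted p = 0.0872), so that a difference between rods and cones was not shown. The only alternative in which the fall did not pass was the thinning of every sum to 49384 UMIs (-1.95, edgeR adjusted p = 0.306).

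ITPR2, a calcium release channel of the endoplasmic reticulum, had 39.0, 25.1, 8.82, 5.29 and 36.0 CPM in infant rods and 138, 81.0, 123 and 128 CPM in senile rods, with 50.3 to 199 CPM in mature rods. The levels of Infancy 3 and 4 rest on very few UMIs, in summed rod counts of 113367 and 188901 UMIs. ITPR2 rose by 2.36 ± 0.47 to senile rods (edgeR adjusted p = 0.0392, passed in 9 of 23 alternatives). It also rose in cones, by 1.62 ± 0.21 to mature (edgeR adjusted p = 0.000546) and 1.16 ± 0.23 to senile cones (edgeR adjusted p = 0.0145). MIA3li3, a numbered copy whose reads the counting may have shared with its relatives, ran from 0 to 16.7 CPM in infant, 33.9 to 82.3 in mature and 162 to 287 in senile rods. The 3 stages did not overlap. It rose by 2.70 ± 0.44 to mature rods (edgeR adjusted p = 0.00712), by 4.73 ± 0.43 to senile rods (edgeR adjusted p = 5.12e-06), and by 2.03 ± 0.33 from mature to senile rods (edgeR adjusted p = 0.0393, passed in 9 of 24 alternatives). Cones rose in the same direction, from 45.5 to 178 and 213 CPM on average (edgeR log2 changes 1.93 and 2.07, adjusted p = 0.000115 and 7.11e-05).

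Of the remaining calls, UNC5C, a netrin receptor, rose by 2.01 ± 0.36 to senile rods (edgeR adjusted p = 0.0162) and passed in 16 of 22 alternatives, with overlapping retinas and Senile 2 at 373 CPM against 54.7 to 101 CPM in Senile 3 to 5. Vessel markers stood at 221 CPM in the rods of Senile 2 too, against 20.2 to 34.8 CPM in Senile 3 to 5, and their part in the UNC5C value was not tested. Without Senile 2 UNC5C did not pass (1.54, edgeR adjusted p = 0.208). RRP1B, a nucleolar protein, was lower in senile rods (log2 fold change -1.52 ± 0.24, edgeR adjusted p = 0.00608, passed in 21 of 24 alternatives), also with overlap. The other calls fell on 1 crystallin copy, described below, and on 6 long non-coding and antisense features. Counts of the antisense features AUTS2-AS-12 and PTP4A1-AS-1 could hold reads of their partner genes, because the use of strand is not given in the sources used here.

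**Figure D4:**
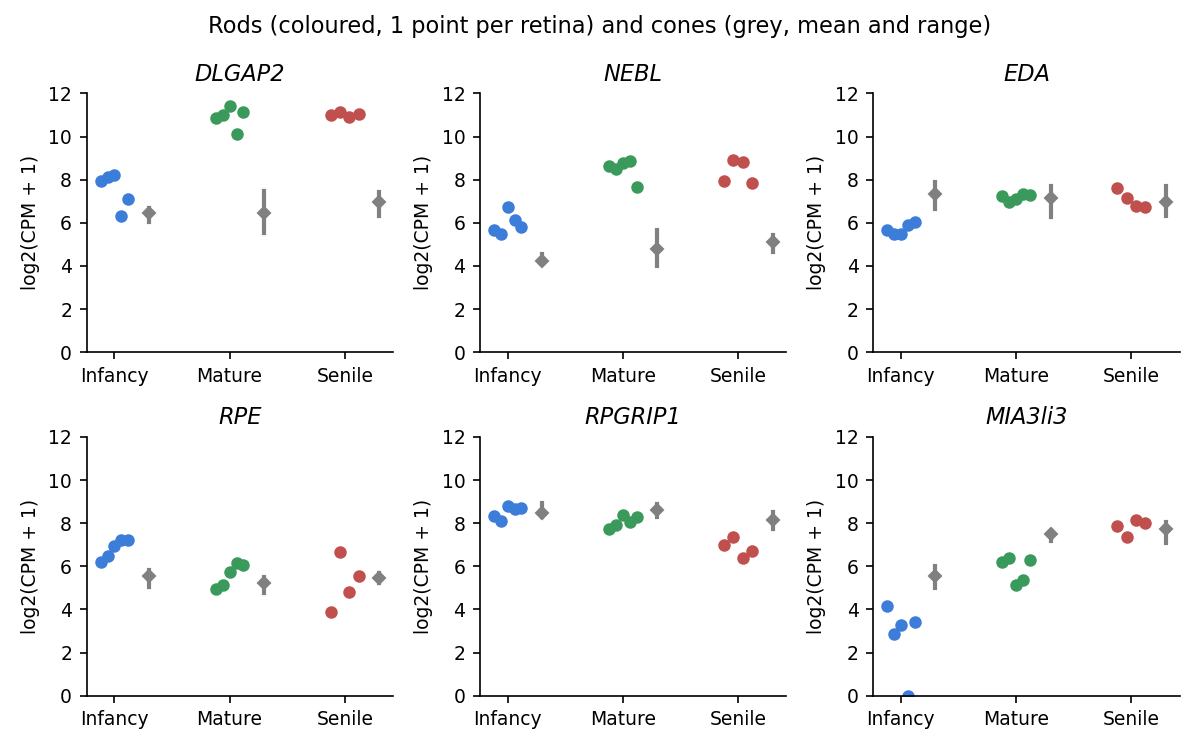
Levels of DLGAP2, NEBL, EDA, RPE, RPGRIP1 and MIA3li3 in log2(CPM + 1) in rods, 1 point per retina by stage, with the mean and range over cones in grey. DLGAP2 and NEBL of infant rods lie below all mature and senile rods, and RPGRIP1 of senile rods lies below all infant and mature rods.

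Markers of other cells were read in the same rods. The summed BC markers were 1536, 1388, 1429, 725 and 1646 CPM in Infancy 1 to 5, 2652, 933, 2628, 1462 and 2300 CPM in Mature 1 to 5, and 1381, 1539, 4796 and 2428 CPM in Senile 2 to 5. The stages overlapped, with medians of 1429, 2300 and 1983 CPM. In the 3 contrasts 0 of the 5 BC genes tested was called, near the 0.247, 0.247 and 0.0247% of all genes. Their median log2 fold changes were 0.28, 0.62 and 0.34, with 4 of 5 above 0 in each contrast. Unadjusted edgeR p-values under 0.05 were found for 0, 2 and 1 of the 5, beside 7.70, 10.6 and 7.23% of all genes. Over all rods most of the sum came from GRIK1li1, a numbered copy of a kainate receptor of OFF BCs, at 915 CPM in rods, 863 in cones and 3876 in other nuclei, followed by PRKCA at 397 and CA10 at 373 CPM in rods. PRKCA was higher in rods than in cones (40.2 CPM) and other nuclei (174 CPM), whereas CA10 was at 349 CPM in cones and 1489 in other nuclei. TRPM1 was at 47.3 and GRM6 at 2.63 CPM in rods, and CABP5 at 0. Without GRIK1li1, which varied from 89.1 to 2979 CPM between retinas, the sums were 598 to 923 CPM in infant, 724 to 1272 in mature and 967 to 1817 in senile rods, so that every senile retina lay above every infant one. Over all rods PRKCA was the largest part of what was left in this sum. The part of BC transcripts in the senile against infant calls was not tested. The gate with 0 UMI of TRPM1 and the other genes named above cannot decide this, since it set no limit on GRIK1li1, PRKCA or CA10. In that gate DLGAP2, NEBL, RPGRIP1 (-1.67, edgeR adjusted p = 0.00414), ITPR2 (2.73, edgeR adjusted p = 0.0378) and MIA3li3 passed for senile against infant. RRP1B did not pass there (-1.17, edgeR adjusted p = 0.0748), and UNC5C fell under the filter on low counts. The summed rod markers outside the rule were 5697 to 9746 CPM in infant, 7138 to 8748 in mature and 7062 to 8773 in senile rods, and the cone markers 176 to 281, 165 to 340 and 138 to 360 CPM. The summed Müller cell markers overlapped between stages, at 123 to 546, 136 to 603 and 55.2 to 511 CPM. Amacrine cell markers were 185 to 540, 171 to 665 and 314 to 629 CPM. Markers of horizontal cells (at most 16.7 CPM) and microglia (at most 35.8 CPM) were low. Ganglion cell markers reached 261 and astrocyte markers 182 CPM. Vessel markers were 221 CPM in Senile 2 and at most 79.4 CPM in every other retina.

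Genes of phototransduction were then read as a list. Of 23 genes of rod phototransduction, 13 that the rule did not use were tested and 0 was called in any of the 3 contrasts. The share called over all genes was 0.247, 0.247 and 0.0247%, so that 0 calls in this list and the next ones are near the background. The list had median log2 fold changes of -0.019, -0.19 and -0.25 (mature against infant, senile against infant, senile against mature) beside 0.0027, -0.014 and -0.0023 over all 4041 genes. SAG averaged 3562 ± 1077, 3144 ± 331 and 3694 ± 1108 CPM, and GNAT1 194 ± 50.5, 185 ± 50.9 and 181 ± 83.4 CPM (SD, n = 5, 5 and 4). The exchanger SLC24A1 averaged 367 ± 59.3, 306 ± 36.3 and 235 ± 41.1 CPM, with a senile log2 difference from infancy of -0.75 ± 0.20 (edgeR adjusted p = 0.123). Unadjusted p-values under 0.05 were found for 0, 3 and 3 of the 13 genes, beside 7.70, 10.6 and 7.23% of all genes. Of 13 cone phototransduction genes 3 were tested in rods and 0 called, with medians of 0.40, 0.53 and 0.14. Of these 3 genes 1, 2 and 0 had an unadjusted p under 0.05. Of 22 photoreceptor transcription factors, 12 were tested and 0 called, with medians of 0.20, -0.077 and -0.27. NRL averaged 332 ± 61.2, 329 ± 196 and 251 ± 59.1 CPM and ESRRB 684 ± 231, 846 ± 124 and 653 ± 120 CPM.

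Of 40 genes of the outer segment and connecting cilium, 27 were tested and RPGRIP1 alone was called, in the senile against infant contrast, where 0.247% of all genes were called. RPGRIP1 too was known from an earlier analysis of these data, so that its call says nothing of the list. The medians of the list were -0.17, -0.30 and -0.28, with 8, 4 and 8 of 27 genes above 0 beside 50.5, 48.8 and 49.7% of all genes, and 2, 4 and 1 genes had an unadjusted p under 0.05. Its partner RPGR averaged 55.0, 48.2 and 48.0 CPM, its paralog RPGRIP1L 94.7, 89.0 and 61.3, and CEP290, a protein of the same transition zone, 158, 130 and 153. None of these passed. Of 13 genes of retinoid handling 4 were tested and 0 called, among them ABCA4, the flippase of the disc rim, at 1888, 1825 and 1635 CPM and RPE65 at 256, 336 and 287 CPM. Of 34 genes of the ribbon synapse 23 were tested and 0 called (medians 0.0025, 0.034 and 0.053). The active zone protein PCLO averaged 1368 ± 42.1, 1224 ± 150 and 1067 ± 25.6 CPM (senile against infant log2 fold change -0.45 ± 0.14, edgeR adjusted p = 0.216).

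Of 76 nuclear-encoded genes of the respiratory chain, 36 were tested and 0 called. Since only 0.247, 0.247 and 0.0247% of all genes were called in the 3 contrasts, a count of 0 says little of this list or of those named next. Their median log2 fold change was -0.055 from infant to mature rods, 0.33 from infant to senile and 0.41 from mature to senile rods, with 28 of 36 above 0 in the senile against infant contrast and 26 in the senile against mature one. Over all 4041 genes 48.8 and 49.7% lay above 0 in these contrasts, with medians of -0.014 and -0.0023. In the respiratory list 0, 4 and 3 of 36 genes had an unadjusted p under 0.05, beside 7.70, 10.6 and 7.23% of all genes. Of its 73 members found, 18 were read from a numbered copy. COX5B, a subunit of cytochrome oxidase, averaged 77.7 ± 28.9, 60.5 ± 28.5 and 134 ± 55.0 CPM (senile against infant log2 fold change 0.96 ± 0.41, edgeR adjusted p = 0.393). Of 23 genes of glycolysis and lactate 10 were tested and 0 called, with medians of -0.15, 0.32 and 0.32. An unadjusted p under 0.05 was found for 0, 2 and 1 of these 10. Mitochondrial transcripts, counted over only 3 features, averaged at most 0.376% of the counts per rod in any retina. Of 35 genes of oxidative and heat stress 15 were tested, and of 10 developmental RNA-binding proteins 4, with 0 called in either list. Unadjusted p-values under 0.05 were found for 1, 5 and 3 of the 15 stress genes, beside 7.70, 10.6 and 7.23% of all genes. None of 12 immediate early genes passed the filter on low counts.

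RNF2, the ubiquitin ligase of Polycomb repressive complex 1, and AUTS2, a partner of that complex, belong to a list of 24 Polycomb genes, of which 8 were tested and 0 called, beside 0.247, 0.247 and 0.0247% of all genes. Of these 8 genes 4, 2 and 1 had an unadjusted p under 0.05 in the 3 contrasts, beside 7.70, 10.6 and 7.23% of all genes. RNF2 had 479, 301, 415, 709 and 517 CPM in infant rods, 311, 261, 399, 477 and 441 in mature rods and 276, 202, 314 and 302 in senile rods. The stages overlapped in part. The senile difference from infancy was -1.02 ± 0.22 (edgeR adjusted p = 0.0572) and passed in 3 of 24 alternatives. AUTS2 averaged 2952 ± 281, 2225 ± 342 and 2367 ± 685 CPM, with log2 fold changes from infancy of -0.45 ± 0.16 (edgeR adjusted p = 0.424) and -0.42 ± 0.18 (edgeR adjusted p = 0.400).

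CRYBB2, a beta crystallin of the lens that has also been described in retinal neurons, was carried by single libraries. Its level in rods was 0, 6.28, 0, 11022 and 2746 CPM in Infancy 1 to 5 and 0, 6.86, 0, 9060 and 17.9 CPM in Mature 1 to 5. Senile 2 to 5 had 0, 0, 109 and 11.6 CPM. Infancy 4, Infancy 5 and Mature 4 stood far above all other retinas, and the contrasts did not pass (edgeR log2 fold changes of -1.15 ± 1.30, -7.35 ± 1.90 and -6.19 ± 1.84, adjusted p = 0.914, 0.120 and 0.480). They passed in 2, 4 and 1 of 24 alternatives, all 3 of them without a filter on low counts and the first 2 also without Mature 4 (-9.29 and -7.33). Other crystallins were high in the same 3 retinas, in cones and other nuclei as well as in rods. The sum over 10 crystallin features was 28962 CPM in rods, 20144 in cones and 26023 in other nuclei of Infancy 4, then 7250, 5265 and 5826 CPM in Infancy 5 and 12110, 8953 and 10936 CPM in Mature 4. In the other retinas it was at most 109 CPM in rods and 157 in cones. Within a retina the crystallins kept nearly the same proportions in all 3 classes: CRYBB2 took 38.1, 39.0 and 37.6% of the crystallin counts of rods, cones and other nuclei in Infancy 4, and 74.8, 76.2 and 74.0% in Mature 4. CRYGEliN, the crystallin copy called in both comparisons with infancy, was at 4071 and 1180 CPM in rods of Infancy 4 and 5, at 75.4 CPM in Mature 4 and at 0 in the rods of all other retinas. Its calls (edgeR adjusted p = 0.00878 and 0.0145) rest on Infancy 4 and Infancy 5. The fitted log2 fold changes of -6.71 and -11.33 are no bound for the senile contrast, where all rods are at 0. The calls did not pass without Mature 5 for mature against infant (edgeR adjusted p = 0.0503), nor without Senile 3 or Senile 5 for senile against infant (edgeR adjusted p = 0.0572 and 0.0618). Without Infancy 4, Infancy 5 or Mature 4 the gene fell under the filter on low counts. DESeq2 made neither call (adjusted p = 0.962 and 0.534). Within the crystallins it took 14.1, 14.5 and 14.5% in Infancy 4 and 0.622, 0.479 and 0.474% in Mature 4.

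**Figure D5:**
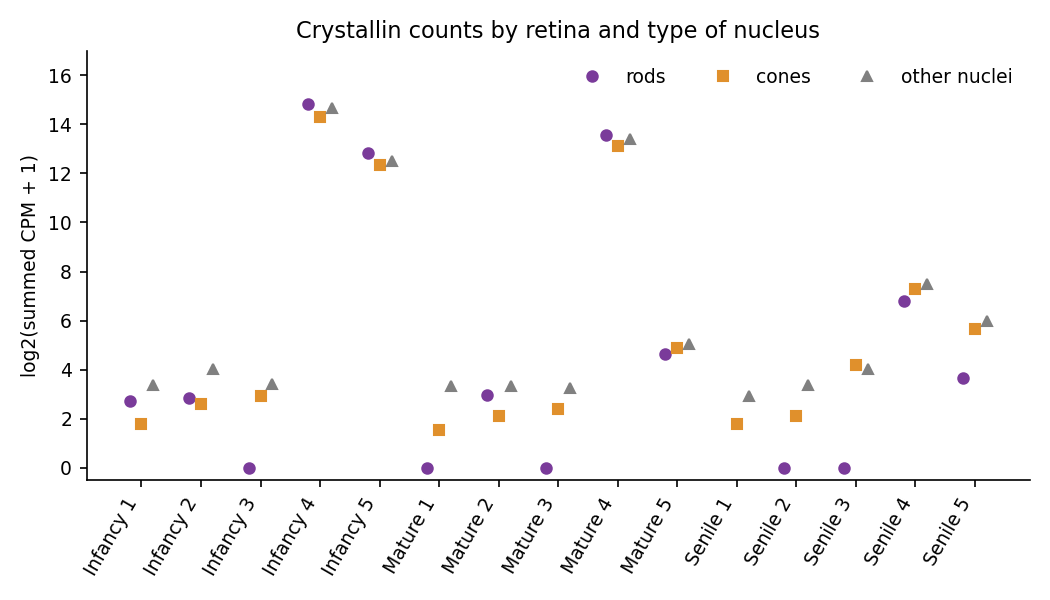
Summed level of 10 crystallin features in log2(CPM + 1) in rods, cones and other nuclei of each retina. Infancy 4, Infancy 5 and Mature 4 stand above the rest in all 3 classes.

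The test of rod change minus cone change over 15150 genes called 5 genes for mature against infant (0.033%), 3 for senile against infant (0.0198%) and 0 for senile against mature (0%), where edgeR gave 837 genes an unadjusted p under 0.05 and DESeq2 also called 0. Beside DLGAP2 and NEBL, CACNG5, an auxiliary subunit of AMPA receptors, had 27.8, 25.1, 17.6, 15.9 and 14.4 CPM in infant rods and 0 in all 9 mature and senile retinas. These infant levels were only a few UMIs per retina, in summed rod counts of 113367 to 416262 UMIs. The senile sums held 49384 to 86090 UMIs, so that 0 in senile rods says little. Cones had 5.32, 10.9 and 10.5 CPM on average. The difference passed for mature against infant (edgeR adjusted p = 0.00573; 0.0814 with doublets removed), and its fitted size is no bound because the later rods are at 0. IL1RAPL1, a synaptic adhesion receptor, averaged 427, 434 and 661 CPM in rods and 355, 981 and 1310 in cones. The change to maturity was smaller in rods than in cones (log2 difference -1.48 ± 0.26, edgeR adjusted p = 0.00573), and this was called in all 19 alternatives. NRG1, a neuregulin growth factor, rose in cones from 22.1 to 94.2 and 79.7 CPM and averaged 254, 423 and 335 CPM in rods (senile against infant difference -1.62 ± 0.32, edgeR adjusted p = 0.0454, passed in 11 of 19 alternatives).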

How the data were processed

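Nuclei of 15 TS retinas were profiled by droplet snRNA-seq. The deposited matrices hold UMI counts per gene and nucleus, made by the authors with Cell Ranger on the TS_3.0 genome. The file headers name versions 6.1.2 and 7.0.1, the submitters' processing notes 5.0.1 and 7.0.1. The labels and the methods of the study name different kit versions, and the counting of introns and the use of strand are not given in the sources used here. Gene positions were not used here. Nuclei with 201 to 5999 genes and under 5% mitochondrial counts (over 3 mitochondrial features) were kept, and rods and cones were chosen by UMI limits. A list symbol that was absent or had under 100 UMIs over all nuclei was replaced by its numbered copy with the most counts. The members, lists and tests were chosen with earlier results of these data known.

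Counts were summed per retina over rods or cones (at least 10 nuclei) and fitted with edgeR 4.0.16 (filterByExpr, TMM, quasi-likelihood test, Benjamini-Hochberg over all genes tested, called at 0.05), with stage and Cell Ranger version in the model, or, for rods minus cones, with the retina as a block. DESeq2 1.42.0 was an alternative. Shares and CLUL1 levels were compared by 2-sided exact permutation of retinas. Levels were compared on log2(CPM + 1). Intervals and limits for 0 counts (3 counts) cover counting error only. Doublets were scored per retina against simulated doublets and kept, with removal as an alternative. Named were the genes of the rule, members of the lists, 6 genes of earlier reports on these data, and called single-copy genes whose stages did not overlap with at least 20 CPM in the higher one, at most 10 each way (5 for rods minus cones, 12 for levels against cones). Of the 6 genes of earlier reports, CLUL1, CRYBB2, AUTS2 and RNF2 came from the study, and RPGRIP1 and DLGAP2 from an earlier analysis of these data. At most 2 numbered or non-coding features were to be named. The overlapping or numbered calls UNC5C, RRP1B, CRYGEliN, IL1RAPL1, NRG1, LRMDA and POLli97 and the antisense features were chosen after their values were seen. On counts simulated for senile against infant rods, over 4041 genes, the fit found 73% of 4-fold and 22% of 2-fold changes, with 6 false calls. For rods minus cones over 15150 genes it found 24% and 4%, also with 6 false calls.

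Replicate numbers of the labels were checked for pairing: after stage and version, 1 of 13 same-numbered pairs of retinas correlated above 0.1 (median -0.0811), so that the numbers were not taken to pair retinas. After stage alone 7 of 13 such pairs lay above 0.1 (median 0.101), beside 11 of 52 other pairs (median -0.0292). The check cannot show that no pairing exists. 2 members of the marker lists are not reported here.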

Additional observations from a re-analysis of the deposited data

Results flagged for a closer look

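In 51 stage groups tested for a retina far from the others, 2 were found, where chance gives about 1 in 20 groups. UNC5C in rods of Senile 2 was at 373 CPM, while the other senile retinas lay between 54.7 and 101 CPM. NRL in rods of Infancy 2 was at 226 CPM, below 340 to 379 CPM in the other infant retinas.

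A difference between the change in rods and the change in cones passed the edgeR test for 5 genes in mature against infant retinas and 3 in senile against infant ones. The log2 differences for mature against infant were 3.49 for DLGAP2, 2.06 for NEBL, -1.48 for IL1RAPL1, -2.79 for LRMDA and -9.81 for CACNG5, whose mature rods are at 0 so that the size is no bound. For senile against infant they were 2.78 for DLGAP2, -1.62 for NRG1 and -1.59 for the numbered copy POLli97. With doublets removed, DLGAP2, NEBL, LRMDA and CACNG5 no longer passed. LRMDA averaged 66.6, 19.7 and 56.7 CPM in infant, mature and senile rods and 8.20, 17.5 and 25.5 CPM in cones, and POLli97 440, 310 and 326 CPM in rods and 26.7, 27.0 and 52.2 CPM in cones.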

How the results depend on the processing

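Fits on sums thinned to the smallest total, 49384 UMIs in Senile 3, called 2, 1 and 0 genes in rods (mature against infant, senile against infant, senile against mature), against 10, 10 and 1. Without a filter on low counts 90, 126 and 40 genes were called, with DESeq2 19 and 31 in the first and second contrast, with the strict gate 6, 19 and 0, and in rods chosen without CLUL1 6, 6 and 0. With stage alone in the model 4 and 0 genes were called in the senile contrasts, and with doublets removed 2 in senile against mature. For rods minus cones, no filter gave 13, 24 and 6 genes against 5, 3 and 0, doublets removed gave 1 in mature against infant, and RLE size factors 1 in senile against infant. The cause of these shifts was not tested.

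In a fit with the replicate number as a block, 10 genes were called for mature against infant, 19 for senile against infant and 0 for senile against mature. RPE, EDA, PTP4A1-AS-1 and LINC-SNW1-8 lost their calls for mature against infant, UNC5C, ITPR2 and LINC-ZFP39-55 for senile against infant and MIA3li3 for senile against mature, while CRYBB2 passed for senile against infant (also without a filter, without Mature 3 and without Mature 4). The numbers were not taken to pair the retinas.

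Both senile contrasts of the rod share passed with rods plus cones as denominator (-6.49 and -5.82 points) and in rods chosen without CLUL1 (-0.507 and -0.393). They also passed with nuclei under 1000 UMIs dropped and the rest thinned to 1000 UMIs (-0.670 and -0.548). Neither passed with doublets removed, with CLUL1 at 2 or 5 UMIs, with ARR3 at 1 UMI or fewer or within Cell Ranger version. Leaving out each retina in turn, the share differences ran from -0.291 to -0.0753 (mature minus infant), -0.624 to -0.402 (senile minus infant) and -0.433 to -0.232 points (senile minus mature). The senile contrasts passed without Senile 2 alone, and the smallest senile minus mature difference was that without Senile 1. For CLUL1 they ran from -0.90 to -0.40, -1.09 to -0.50 and -0.44 to 0.14. The last turned positive without Mature 1, Mature 2, Senile 4 or Senile 5, and was 0.052 within Cell Ranger version, -0.47 with TMM-scaled CPM and -0.41 with at least 20 such rods. Calls in rods ran from 7 to 18 (18 without Mature 4), from 6 to 15 (6 without Infancy 1) and from 0 to 1, the 1 gene being lost without Infancy 1, 2 or 3, Mature 1, 2, 3 or 4, or Senile 2, 4 or 5. For rods minus cones they ran from 4 to 12 (8 without Mature 2 or Mature 3, 12 without Mature 5), from 1 to 14 (1 without Infancy 3, Infancy 5 or Senile 4, 6 to 9 without Mature 1, 2, 3 or 4, 7 without Senile 2, 14 without Mature 5) and from 0 to 2 (2 without Mature 3, 1 without Senile 2).

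No called gene turned its direction in an alternative. Among values that were not called, RNF2 for mature against infant was 0.33 on thinned sums. For senile against mature, AUTS2 was -0.18 without the filter and ran from -0.16 (without Senile 4) to 0.16 when each retina was left out in turn, and was -0.065 without Mature 4. DLGAP2 was -0.16 without the filter and -0.044 with the strict gate, and ran from -0.080 (without Mature 4) to 0.29, with -0.015 without Mature 1. CRYBB2 ran from -9.29 to 0.18 (without Infancy 4) for mature against infant and from -8.56 to 1.96 (without Mature 4) for senile against mature.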
